A study of Mus musculus with 6 samples.

Results

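The alternative activation markers are 10 mouse genes that interleukin-4 (IL-4) is known to induce in macrophages, together with the receptor chain through which it acts: Retnla, Chil3 (Chi3l3), Chil4 (Chi3l4), Ear11, Ccl24, Mgl2, Clec10a, Cd200r1, Tgm2 and Il4ra. They were chosen by name, as every non-control array probe that carries 1 of these gene names. The name Ear11 was matched to the array's Rnase2a probe, for which RefSeq lists Ear11 as a synonym. All 10 genes were found, with 12 probes of the 28273 probes tested and 10 of 20251 genes or unnamed features. All 12 were well above background on all 5 arrays with scanner files, so the filter on dim probes removed none. Il4ra and Tgm2 had 2 probes each.

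The tested samples were labelled polarized M2-like BMM, taken from chimeric mice that carried c-Maf KO fetal liver cells (3 samples), and were set against the same kind of culture from mice carrying WT fetal liver cells (3 samples). Per the labels' protocols, all 6 cultures received M-CSF, on which macrophages depend for growth, at 10 ng per ml with daily additions from day 4. No IL-4 is named in those protocols, and the sources used here do not state strain, age and sex of the mice or the share of host cells that remained in the chimeras. Total RNA was hybridised to 1-colour Agilent arrays, and the array files used were those of c-Maf KO replicates 2 and 3 and all 3 WT replicates; c-Maf KO replicate 1 is represented by its column of the authors' value table alone. Since no label ties the replicates to separate animals, p-values reflect the spread among these samples only, and that spread may be technical.

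IL-4 and IL-13 bind receptors that share the Il4ra chain, and the kinases on these receptors activate the transcription factor STAT6. STAT6 then switches on a set of genes that marks alternatively activated (M2) macrophages, among them secreted proteins of the resistin and chitinase families, galactose-binding lectins and the crosslinking enzyme transglutaminase. c-Maf, encoded by Maf, is a basic leucine zipper factor of macrophages that binds Maf recognition elements. The comparison asks whether these markers differ between the c-Maf KO and the WT cultures.

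The cultures carried macrophage transcripts: all 8 probed genes of a list of 8 macrophage markers (Csf1r, Cd68, Adgre1, Itgam, Mertk, Fcgr1, Lyz2 and Cd14) were detected, with summed signals of 1072 and 1031 on the c-Maf KO arrays and 1063 to 1164 on the WT arrays, in multiples of each array's 75th percentile. The array 75th percentile of processed intensity lay between 411 and 495, 48.9% to 50.5% of probes were well above background, and no probe was saturated. The Maf probe with the higher signal (chromosome 8, 118227736 to 118227795, mm9) fell in c-Maf KO: its log2 ratios were -2.22, -2.36 and -1.92 in the c-Maf KO samples and 1.92, 1.98 and 2.03 in the WT samples, a difference of -4.14 (SE 0.12, limma adjusted p = 0.000826). The second Maf probe (118207273 to 118207332), undetected on the c-Maf KO arrays, was at least 6.69-fold lower there (limma adjusted p = 0.00115), and it missed the threshold in the value table (limma adjusted p = 0.0522). On the 5 arrays the first probe was called with all samples (limma adjusted p = 0.00931) and not when WT replicate 1, 2 or 3 was left out (0.121, 0.167 and 0.136). Though lower, the first probe was still well above background on both c-Maf KO arrays. The sources used here do not say which part of Maf was deleted. Slide rows were read from the names of the scanner files, by which row 2 held c-Maf KO replicates 2 and 3 and row 1 the WT arrays. On these arrays slide row and genotype cannot be told apart. The row of c-Maf KO replicate 1 is not known here.

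No member probe was called as different between the genotypes by the test used. With limma and a Benjamini-Hochberg adjusted p under 0.05, 0 of the 12 member probes were called on the 5 arrays, where 0.0248% of all 28273 probes were called, and 0 of 12 in the value table of 6 samples, where 0.0212% were. At an unadjusted p under 0.05, limma gave 2 of 12 member probes on the 5 arrays (10.5% of all probes) and 3 of 12 in the value table (12.1% of all probes). The lowest adjusted p of a member was 0.398 on the 5 arrays, while that of the value table was 0.256. In both sources 4 genes had positive and 6 had negative log2 differences, given here as c-Maf KO minus WT. The median difference of the 10 genes was -0.054 in the value table, against 0.0017 for all genes, and the median absolute difference was 0.13, against 0.098 for all genes.

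**Figure D1:**
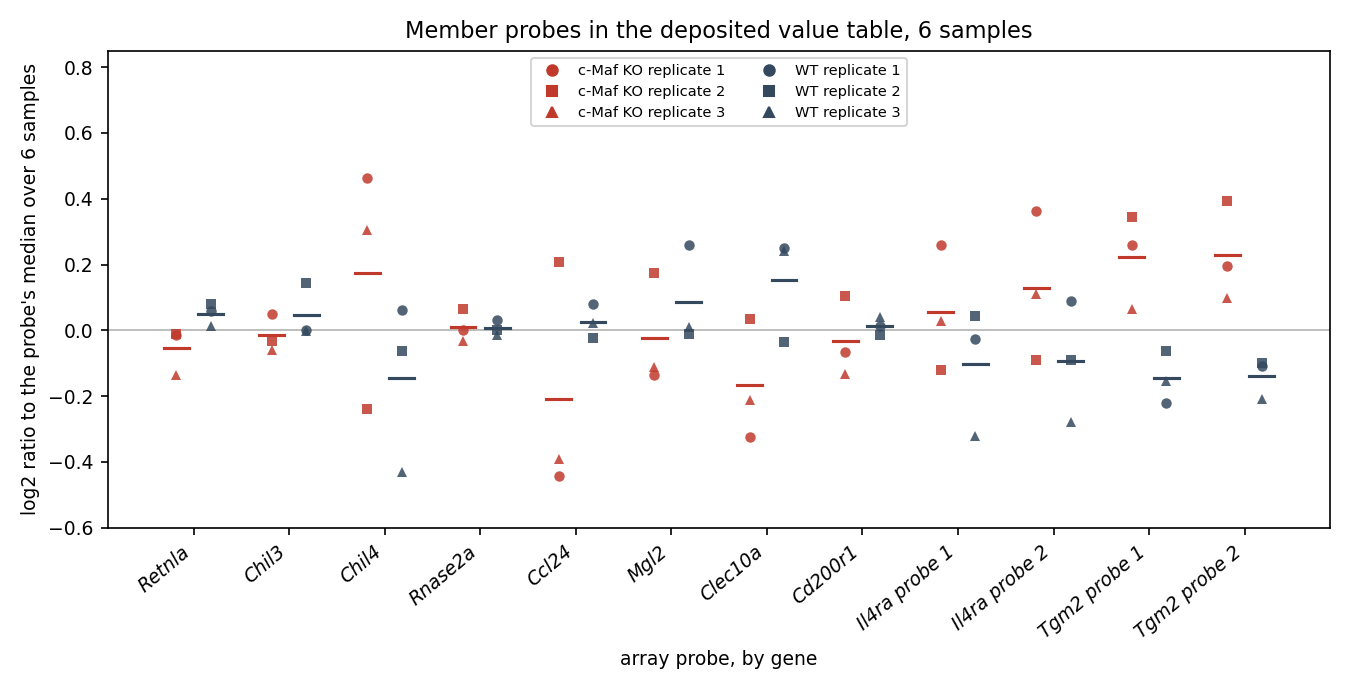
Log2 ratio of each member probe to its own median over the 6 samples, from the deposited value table. Points are samples, c-Maf KO (red) left of WT (blue), and bars are group means. The groups are apart for Retnla (c-Maf KO lower) and for both Tgm2 probes (c-Maf KO higher), and they overlap for the other 9 probes.

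The promoters of 3 secreted markers are shown because they carry the textbook binding sequences for STAT factors. The chitinase-like pair is also shown because neighbouring genes with like promoters differed in signal and in how much they varied between samples. RefSeq promoters of build GRCm38.p6 were found for 6 of the 10 genes (Retnla, Chil3, Chil4, Rnase2a, Mgl2 and Il4ra). Each sequence holds the 250 bases before the annotated start, 5′ to 3′ on the gene's strand. Capitals mark matches to TTC and GAA with 4 bases between them, the spacing that STAT6 prefers, to TTC and GAA with 3 bases between them, the spacing used by STAT factors in general, and to TGCTGA or its reverse complement TCAGCA, 1 arm of a Maf recognition element.
Retnla (chr16:48842359-48842608, plus strand): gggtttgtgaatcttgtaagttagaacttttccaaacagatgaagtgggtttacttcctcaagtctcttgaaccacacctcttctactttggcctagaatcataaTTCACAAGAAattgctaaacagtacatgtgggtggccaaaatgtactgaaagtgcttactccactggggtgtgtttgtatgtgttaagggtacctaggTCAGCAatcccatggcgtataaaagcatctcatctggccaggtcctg
Chil3 (chr3:106167565-106167814, minus strand): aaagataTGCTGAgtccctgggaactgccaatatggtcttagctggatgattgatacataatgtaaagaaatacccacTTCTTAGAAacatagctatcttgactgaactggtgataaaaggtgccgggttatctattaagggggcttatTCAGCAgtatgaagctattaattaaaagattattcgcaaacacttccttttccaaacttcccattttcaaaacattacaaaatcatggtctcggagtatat
Chil4 (chr3:106219480-106219729, minus strand): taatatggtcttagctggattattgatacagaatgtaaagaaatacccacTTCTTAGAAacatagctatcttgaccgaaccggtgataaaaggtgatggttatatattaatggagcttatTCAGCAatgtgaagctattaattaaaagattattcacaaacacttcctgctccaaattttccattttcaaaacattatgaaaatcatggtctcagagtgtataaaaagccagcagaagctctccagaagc

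Retnla carried TTCACAAGAA with its first base 145 bases before the start. Among the 6 member promoters it was the 1 match to the spacing of 4 bases, which 5.85% of 32851 RefSeq mouse promoters of this length hold on either strand. Chil3 and Chil4 both carried TTCTTAGAA, at 172 and 200 bases before the start, and were the 2 members with the spacing of 3 bases, which 7.02% of all promoters hold. The hexamer TGCTGA was found on either strand in 4 of 6 member promoters (Retnla, Chil3, Chil4 and Rnase2a), against 16.1% of all promoters. The promoters of Chil3 and Chil4 are identical at 201 of 223 aligned positions and share TTCTTAGAA and TCAGCA. Their matches are therefore not independent of each other in these counts. The whole element, TGCTGA and TCAGCA with 1 base between them, was in 0 of 6 members and in 0.00609% of all promoters. No marked match overlaps another. These are matches of letters in the printed window, and no binding was measured.

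The first 4 members encode secreted proteins. Retnla (RELM-alpha) is a resistin-like protein of alternatively activated macrophages, and Chil3 (Ym1) and Chil4 (Ym2) are chitinase-like lectins. Ear11 (Rnase2a) is a ribonuclease of the eosinophil-associated family.

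Retnla (chromosome 16, 48844447 to 48844506, mm9) had log2 levels of 9.72 and 9.61 on the arrays of c-Maf KO replicates 2 and 3, and of 9.80, 9.83 and 9.74 on those of WT replicates 1 to 3, after scaling to each array's 75th percentile. Its value-table log2 ratios were -0.015, -0.012 and -0.13 in c-Maf KO replicates 1 to 3, against 0.059, 0.081 and 0.012 in WT replicates 1 to 3. Every c-Maf KO sample lay below every WT sample, with c-Maf KO replicate 2 and WT replicate 3 nearest to each other. The value-table difference was -0.10 (SE 0.064, limma adjusted p = 0.558), a c-Maf KO level of 0.930 times WT with a 95% interval of 0.834 to 1.04. On the 5 arrays it was -0.13 (SE 0.071, limma adjusted p = 0.610). After quantile normalization of the arrays the difference was 0.015.

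Chil3 (chromosome 3, 105950485 to 105950544, mm9) had log2 levels of 9.12 and 9.11 in c-Maf KO, against 9.17, 9.32 and 9.15 in WT. The log2 ratios were 0.049, -0.032 and -0.060 in c-Maf KO and 0.00097, 0.14 and -0.00097 in WT. On the 5 arrays both c-Maf KO samples lay just below the WT samples, and in the value table, which adds c-Maf KO replicate 1, the groups overlapped. The value-table difference was -0.062 (95% interval -0.24 to 0.11, limma adjusted p = 0.750).

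Chil4, the gene next to Chil3, varied more between samples than any other member. Its probe (chromosome 3, 106006584 to 106006643, mm9) shares at most 20 of 60 bases with the Chil3 probe in an ungapped alignment, while the printed promoters of the 2 genes are identical at 201 of 223 aligned positions (90.1%). The probe is shown because the Chil4 values rest on it, and whether it also takes up Chil3 transcript was not tested.
Chil4 probe (chr3:106006584-106006643, minus strand, mm9): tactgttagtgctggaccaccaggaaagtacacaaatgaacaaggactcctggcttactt

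The Chil4 log2 levels were 2.61 and 3.17 in c-Maf KO, against 2.93, 2.81 and 2.42 in WT. Its log2 ratios were 0.46, -0.24 and 0.30 in c-Maf KO replicates 1 to 3 and 0.062, -0.062 and -0.43 in WT replicates 1 to 3. c-Maf KO replicates 1 and 3 were the 2 highest samples, and WT replicate 3 and c-Maf KO replicate 2 the 2 lowest, so the groups overlapped. The ratios spanned 0.89 log2 units, against 0.20 for Chil3. The Chil4 probe also read far lower, at log2 levels of 2.42 to 3.17, against 9.11 to 9.32 for Chil3. Whether the wider span comes from the lower signal was not tested. The difference was 0.32 in the value table (SE 0.22, 95% interval -0.21 to 0.85, limma adjusted p = 0.593). On the 5 arrays it was 0.17, and -0.11 without c-Maf KO replicate 3.

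The genes whose ratios followed Chil4 most closely over the 6 samples were Zfp644, Ogfod1, Tnks1bp1, Dnajb4 and Fam219a, with Pearson correlations between 0.973 and 0.994. They are the 5 highest among all genes, picked for this likeness, so the values are a description. Zfp644, the most like, had ratios of 0.12, -0.064 and 0.088 in c-Maf KO and 0.032, -0.032 and -0.11 in WT. Ogfod1, the next, had 0.28, -0.13 and 0.12 in c-Maf KO and -0.0024, 0.0024 and -0.21 in WT.

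Ear11 (Rnase2a, chromosome 14, 51875064 to 51875123, mm9) was the steadiest member. Its log2 levels were 8.87 and 8.79 in c-Maf KO, against 8.85, 8.82 and 8.79 in WT, and its value-table ratios spanned 0.097 log2 units over all 6 samples. The difference was 0.0039 (SE 0.058, 95% interval -0.14 to 0.15, limma adjusted p = 0.985), or 0.908 to 1.11 times WT for the probe's signal. Whether the probe tells Ear11 from close relatives in its family was not tested. Eosinophils also express genes of this family. Of 6 probed eosinophil markers, the granule genes Epx and Prg3 were not above background on enough arrays to be tested. The granule gene Prg2 was well above background on all 5 arrays, at log2 levels between -1.79 and -0.44. The 4 tested markers had summed signals of 14.0 and 10.6 in c-Maf KO, against 11.9, 12.7 and 12.5 in WT. Prg2, Ccr3 and Il5ra made up a small part of these sums.

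Ccl24 (eotaxin-2), a chemokine that attracts eosinophils through the receptor Ccr3, was uneven among the c-Maf KO samples. The probe (chromosome 5, 136046667 to 136046726, mm9) had log2 levels of 2.86 and 2.28 in c-Maf KO replicates 2 and 3, against 2.75, 2.65 and 2.68 in WT. The log2 ratios were -0.44, 0.21 and -0.39 in c-Maf KO and 0.080, -0.023 and 0.023 in WT. c-Maf KO replicates 1 and 3 lay below every WT sample and c-Maf KO replicate 2 above all of them. The SD was 0.36 among c-Maf KO samples and 0.052 among WT samples (n = 3 each). The difference was -0.24 (SE 0.18, 95% interval -0.67 to 0.20, limma adjusted p = 0.625). Without c-Maf KO replicate 2 it was -0.44 (limma adjusted p = 0.258).

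The next members are receptors on the cell surface. Mgl2 and Clec10a (Mgl1) are neighbouring genes for C-type lectins that bind galactose and N-acetylgalactosamine. Cd200r1 encodes the inhibitory receptor for CD200, and Il4ra the signalling chain for IL-4 and IL-13.

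Clec10a (chromosome 11, 69984254 to 69984313, mm9) had log2 levels of 3.28 and 3.05 in c-Maf KO, against 3.51, 3.23 and 3.48 in WT. Its log2 ratios were -0.32, 0.034 and -0.21 in c-Maf KO and 0.25, -0.034 and 0.24 in WT. c-Maf KO replicates 1 and 3 were lowest, but c-Maf KO replicate 2 lay above WT replicate 2, so the groups overlapped. Clec10a had the most negative difference among the members, -0.32 in the value table (SE 0.13, 95% interval -0.63 to -0.0095, limma adjusted p = 0.403), or 0.802 times WT.

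Mgl2 (chromosome 11, 69950985 to 69951044, mm9) had log2 levels of 7.76 and 7.50 in c-Maf KO, against 7.87, 7.60 and 7.60 in WT. The log2 ratios were -0.14, 0.17 and -0.11 in c-Maf KO and 0.26, -0.010 and 0.010 in WT. The order of the c-Maf KO samples, with replicate 2 on top, was that of Ccl24 and Clec10a. The value-table difference was -0.11 (SE 0.12, 95% interval -0.40 to 0.18, limma adjusted p = 0.736), and -0.025 without WT replicate 1. From the 5 arrays alone it was -0.057. The probes of Mgl2 and Clec10a share at most 20 of 60 bases with each other. Whether either probe also takes up transcript of the other gene was not tested.

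Cd200r1 (chromosome 16, 44794670 to 44794729, mm9) had log2 levels of 2.95 and 2.73 in c-Maf KO, against 2.87, 2.85 and 2.88 in WT. The log2 ratios were -0.066, 0.10 and -0.13 in c-Maf KO and 0.013, -0.013 and 0.040 in WT. c-Maf KO replicate 2 was again the highest sample and the other c-Maf KO samples were the lowest. The difference was -0.045 (SE 0.079, 95% interval -0.24 to 0.15, limma adjusted p = 0.848).

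The Il4ra probe with the higher signal (chromosome 7, 132722922 to 132722981, mm9) had log2 levels of 0.34 and 0.51 in c-Maf KO, against 0.45, 0.52 and 0.14 in WT. Its log2 ratios were 0.26, -0.12 and 0.027 in c-Maf KO and -0.027, 0.043 and -0.32 in WT. On the second probe (132712550 to 132712609) they were 0.36, -0.089 and 0.11 in c-Maf KO and 0.089, -0.090 and -0.28 in WT. On both probes c-Maf KO replicate 1 was the highest sample and WT replicate 3 the lowest, and the groups overlapped. The value-table differences were 0.16 (SE 0.14, limma adjusted p = 0.674) and 0.22 (SE 0.15, limma adjusted p = 0.587), and without WT replicate 3 they were 0.047 and 0.13. From the 5 arrays alone they were 0.053 and 0.10.

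Tgm2, tissue transglutaminase, crosslinks proteins and is used as an M2 marker in mouse and human macrophages. It had the largest difference of the members, and its probes lie beside each other on chromosome 2 (157942275 to 157942334 and 157942431 to 157942490, mm9). On the first probe the log2 levels were 6.82 and 6.56 in c-Maf KO, against 6.28, 6.44 and 6.33 in WT, and on the second they were 6.03 and 5.76 in c-Maf KO, against 5.55, 5.56 and 5.43 in WT.

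The value-table log2 ratios of the first Tgm2 probe were 0.26, 0.34 and 0.063 in c-Maf KO and -0.22, -0.063 and -0.15 in WT. Those of the second were 0.20, 0.39 and 0.098 in c-Maf KO and -0.11, -0.098 and -0.21 in WT. On both probes all 3 c-Maf KO samples lay above all 3 WT samples. The difference of the first probe was 0.37 in the value table (SE 0.093, 95% interval 0.14 to 0.60, unadjusted p = 0.00766, limma adjusted p = 0.256), or 1.29 times WT, and 0.35 on the 5 arrays (SE 0.11, limma adjusted p = 0.415). The second probe gave 0.37 and 0.38 (limma adjusted p = 0.256 and 0.398). Neither probe was called in any alternative run, with the lowest adjusted p at 0.124 for the 5 arrays and 0.201 for the value table. Without c-Maf KO replicate 2 the first probe's difference on the 5 arrays was 0.22.

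**Figure D2:**
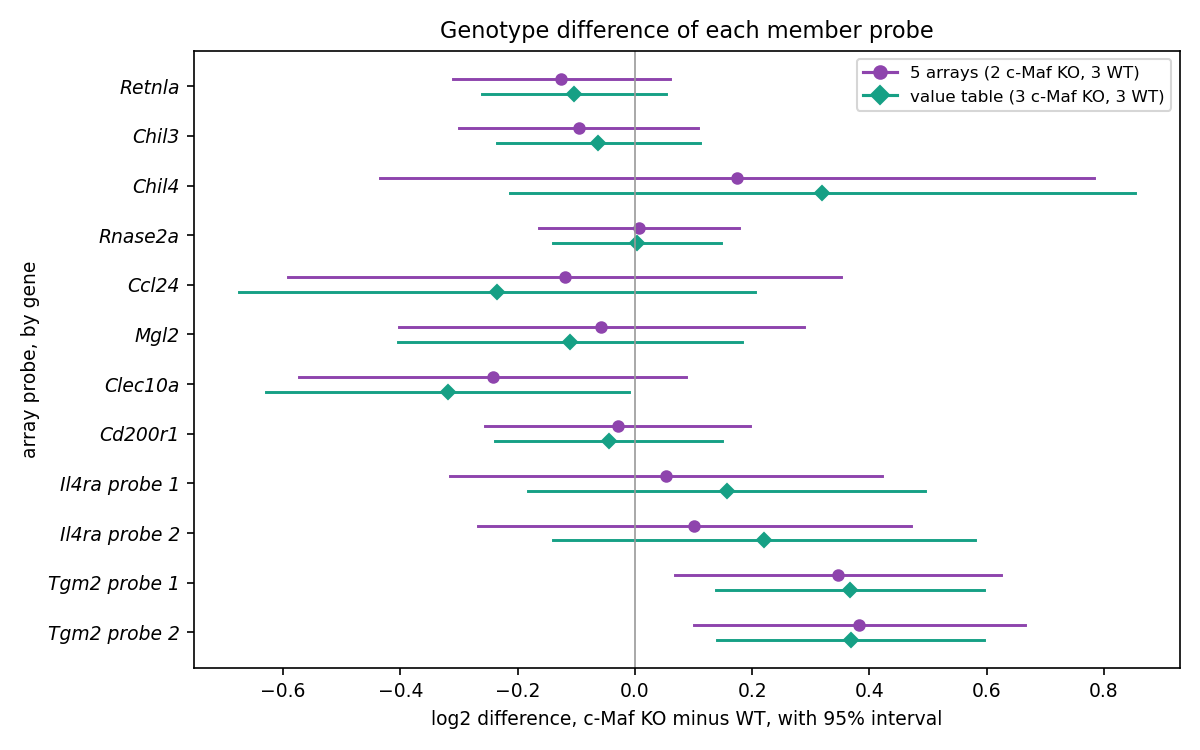
Log2 difference of each member probe, c-Maf KO minus WT, with its 95% interval from limma, on the 5 arrays with scanner files (circles) and in the value table of 6 samples (diamonds). In the value table the interval leaves out 0 for both Tgm2 probes (0.37 and 0.37) and for Clec10a (-0.32), and on the 5 arrays for the Tgm2 probes alone. The value table holds the same 5 arrays and 1 more sample.

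Groups that do not overlap were found for 3 of 12 member probes in the value table (Retnla and both of Tgm2), where 19.4% of all probes had such groups. The lower 1, Retnla, compares with 9.26% of all probes and the higher 2, those of Tgm2, with 10.2%. On the 5 arrays they were found for 4 of 12, those 3 and Chil3, where 29.4% of all probes did.

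Markers of other cells differed between the samples and are given beside some of the members, whether or not the 2 moved together. In bulk RNA, fewer cells of a type and less RNA per cell cannot be told apart. Of 10 probed fibroblast and stromal markers, 9 were tested and Lum was not. All 9 had positive differences, with a median of 0.87 in the value table. There limma called 0 and gave 7 of 9 an unadjusted p under 0.05, against 12.1% of all probes in either direction. The summed signal of the 9 was 239 and 264 times the 75th percentile in c-Maf KO, against 183, 106 and 120 in WT. Tgm2 is also expressed by such cells. The mean stromal ratio was 0.21, 0.076 and 0.50 in c-Maf KO replicates 1 to 3, where both Tgm2 probes were highest in replicate 2 and lowest in replicate 3. It was -0.097, -0.96 and -0.62 in WT replicates 1 to 3, where both Tgm2 probes were highest in replicate 2, and the first was lowest in replicate 1 and the second in replicate 3. The part of stromal cells in the Tgm2 difference was not tested.

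The samples lowest for Chil4 and for the first Il4ra probe were those highest for neutrophil markers and for mast cell and basophil markers. On the second Il4ra probe, c-Maf KO replicate 2 and WT replicate 2 were level (-0.089 and -0.090). The mean log2 ratio of 8 neutrophil markers was -0.45, 0.31 and -0.45 in c-Maf KO replicates 1 to 3 and -0.10, 0.012 and 0.70 in WT replicates 1 to 3, and their summed signal was 42.6 and 30.2 in c-Maf KO, against 38.9, 35.7 and 55.6 in WT. For the 5 tested mast cell and basophil markers of 8 probed, the mean ratio was -0.79, 0.86 and -0.76 in c-Maf KO and 0.12, -0.12 and 1.41 in WT, with summed signals of 0.632 and 0.354 in c-Maf KO, against 0.476, 0.469 and 0.951 in WT. Of that list, Mcpt4 and Ms4a2 were well above background on 0 arrays and Hdc on 1, of WT, and these 3 were not tested. Among the tested 5, Cpa3 was well above background on only 1 c-Maf KO and 1 WT array, and Mcpt8 on 1 c-Maf KO and 3 WT arrays. The Cpa3 ratios were 2.48 in c-Maf KO replicate 2 and 2.57 in WT replicate 3, so the high means there rest partly on a gene near the floor. c-Maf KO replicate 2 and WT replicate 3 were thus high for both lists and low for Chil4 and for the first Il4ra probe. The part of these cells in the 2 values was not tested.

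The 6 tested of 8 dendritic cell markers had a mean log2 ratio of -0.060, 0.45 and -0.10 in c-Maf KO and 0.032, 0.021 and 0.11 in WT, and Xcr1 and Clec9a were well above background on too few arrays to be tested (0 and 1). The summed signal of the tested markers was 344 and 299 in c-Maf KO, against 321, 336 and 322 in WT. Most of it came from Itgax, at log2 levels of 8.31 and 8.11 in c-Maf KO. c-Maf KO replicate 2, the highest for the mean of these markers, was also the highest c-Maf KO sample for Ccl24, Mgl2, Clec10a and Cd200r1. The markers were uneven there: Itgax and Batf3 were highest in that sample, at only 0.11 and 0.18. Zbtb46 was not, with -0.0016 there and 0.19 in c-Maf KO replicate 3. The part of dendritic cells in the 4 members was not tested. The macrophage markers had a mean log2 ratio of 0.014, -0.19 and -0.093 in c-Maf KO, against 0.016, 0.069 and 0.0065 in WT, with 1 of 8 positive. In limma 0 of these 8 were called, and 1 higher and 3 lower had an unadjusted p under 0.05 in the value table (12.1% of all probes). Of hepatocyte and hepatoblast markers, Alb, Apoa1 and Ttr were not above background. Afp of the same list was well above background on all 5 arrays. Its log2 levels were 2.23 and 1.89 in c-Maf KO, against 1.94, 1.98 and 1.86 in WT. The 3, 1 and 3 tested genes of the hepatocyte, erythroid and lymphoid lists had median value-table differences of -0.12, 0.039 and -0.018, and 0 were called.

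**Figure D3:**
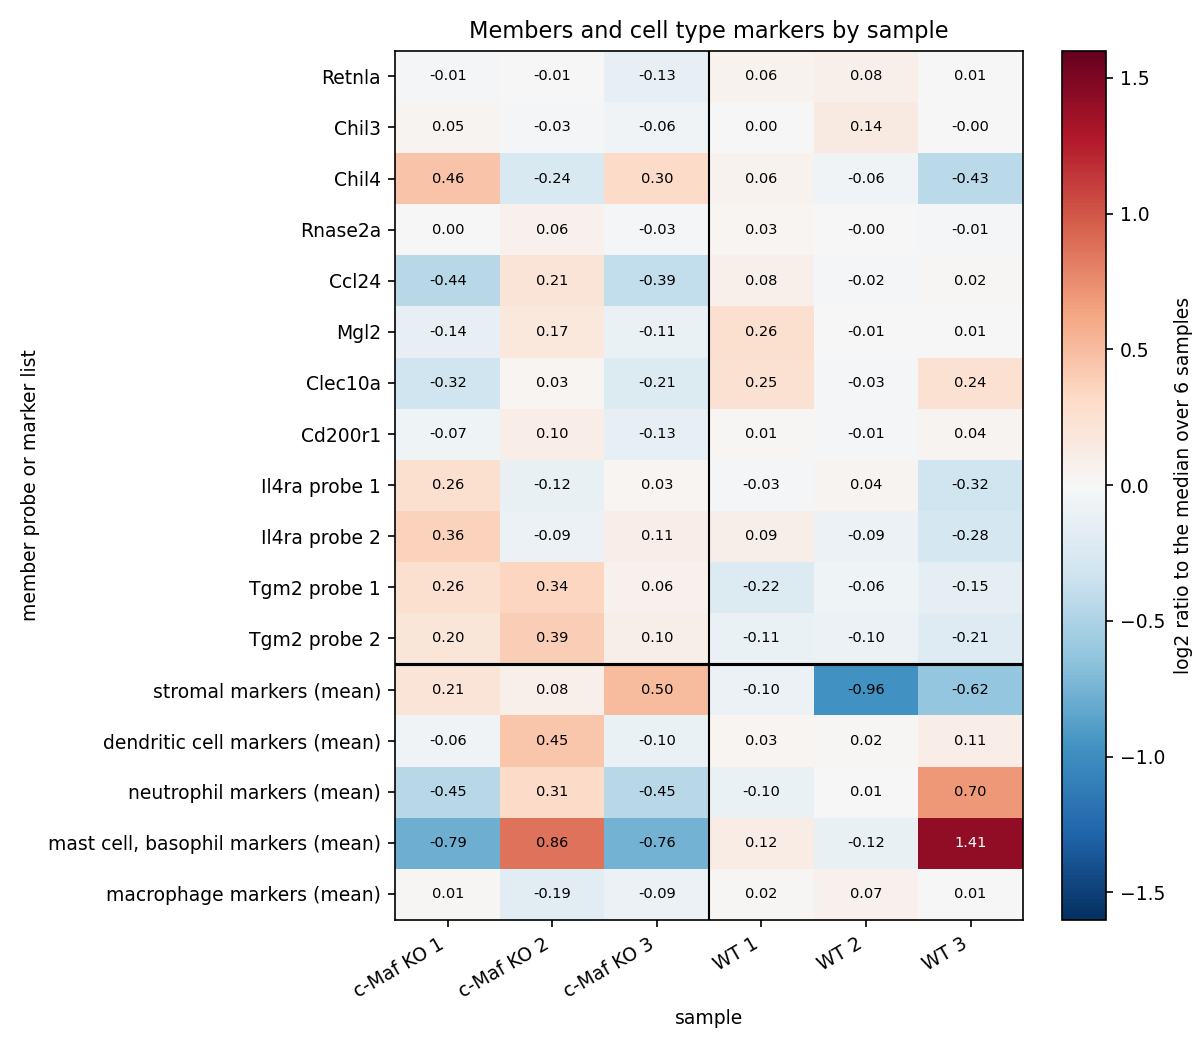
Log2 ratio to the median over 6 samples for each member probe (rows above the line) and the mean ratio over each marker list (rows below it), with c-Maf KO samples left and WT samples right. Chil4 and the first Il4ra probe are lowest in c-Maf KO replicate 2 (-0.24 and -0.12) and WT replicate 3 (-0.43 and -0.32), the samples highest for neutrophil (0.31 and 0.70) and mast cell and basophil markers (0.86 and 1.41).

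The signalling chain upstream of the members showed no call. Of 13 probed genes of the IL-4 receptor and its signalling, 11 were tested. Of the cytokine genes, Il13 was well above background on 0 arrays and Il4 on 1, of WT, so neither reached the minimum of 2 arrays. Of these, 0 were called, 4 had positive value-table differences and the median was -0.016. Stat6, the central transcription factor, measured -0.082 (SE 0.092, 95% interval -0.31 to 0.14, limma adjusted p = 0.748). The kinases Jak1, Jak3 and Tyk2 measured -0.016, -0.098 and 0.064, and the common gamma chain Il2rg -0.016. The brakes Socs1 and Ptpn6 (SHP-1) measured -0.15 and -0.13, and the adaptor Irs2 -0.10. The receptor chain Il13ra1 measured 0.21 (SE 0.17), on a probe well above background on only 1 c-Maf KO and 1 WT array. The adaptor Irs1 measured 0.90 (SE 0.42, limma adjusted p = 0.463).

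Il13ra2 is a receptor for IL-13 that binds it without the Il4ra chain. It was the only gene of this list with an unadjusted p under 0.05 in the value table (limma, 12.1% of all probes). Its log2 ratios were 0.41, 0.13 and 1.16 in c-Maf KO and -0.13, -1.17 and -1.10 in WT, so the groups did not overlap. The difference was 1.36 (SE 0.38, limma adjusted p = 0.281). Within c-Maf KO its order over replicates was that of the stromal markers, and WT replicate 1, the WT sample with the most stromal signal, was also the highest WT sample for Il13ra2. The part of stromal cells in this value was not tested.

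Of 10 transcription regulators that act with or after STAT6, all 10 were tested, 0 were called, 0 had an unadjusted p under 0.05 in limma and 5 had positive differences, with a median of 0.0021 in the value table. The differences ran from -0.19 for Irf4, a factor of M2 polarisation, and -0.18 for the histone demethylase Kdm6b to 0.15 for Tfec and 0.16 for Bhlhe40. The nuclear receptor Pparg, which works with STAT6, measured -0.029 (SE 0.078, 95% interval -0.22 to 0.16) and its coactivator Ppargc1b -0.054. Klf4 measured -0.062, Egr2 0.034, Myc 0.051 and Cebpb 0.12.

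Of 19 other probed IL-4 target genes, 18 were tested and Alox15 was not above background. Of these, 0 were called, 14 had positive value-table differences and the median was 0.14, against 0.0017 for all genes. The 4 with the highest signals were the ribonuclease Ear2 (-0.038), the scavenger receptor Cd36 (0.13), the mannose receptor Mrc1 (-0.24) and the kinase Matk (-0.26). At an unadjusted p under 0.05 (limma) there were 5 higher and 2 lower of 18, against 12.1% of all probes in either direction. The 2 lower were Mrc1 and Matk (limma adjusted p = 0.364 and 0.394).

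The 5 that were higher at that level, named after their values were seen, were Arg1, Ccl22, Cdh1, Ch25h and Pdcd1lg2. The log2 ratios of Arg1, the arginase of alternative activation, were 0.63, 0.27 and 0.22 in c-Maf KO and -0.39, -0.22 and -0.55 in WT (difference 0.76, SE 0.14, limma adjusted p = 0.189). The E-cadherin gene Cdh1 measured 0.86 (SE 0.16, limma adjusted p = 0.190), the cholesterol hydroxylase Ch25h 1.07 (SE 0.25, limma adjusted p = 0.245) and the checkpoint ligand PD-L2 gene Pdcd1lg2 0.26 (SE 0.067, limma adjusted p = 0.256). The chemokine gene Ccl22 was undetected in WT, so that its c-Maf KO signal on the 5 arrays was higher by a factor of at least 2.17 (limma adjusted p = 0.164). Arg1 and Cdh1 were called on the 5 arrays with a variance trend and robust estimation (limma adjusted p = 0.0443 and 0.0161). Ccl22 was called in the value table with that setting and with centred columns (limma adjusted p = 0.0107 and 0.0353). Ccl22 passed the filter on dim probes through the 2 c-Maf KO arrays alone, where it was high. Its p-values and calls are therefore no support for a difference.

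**Figure D4:**
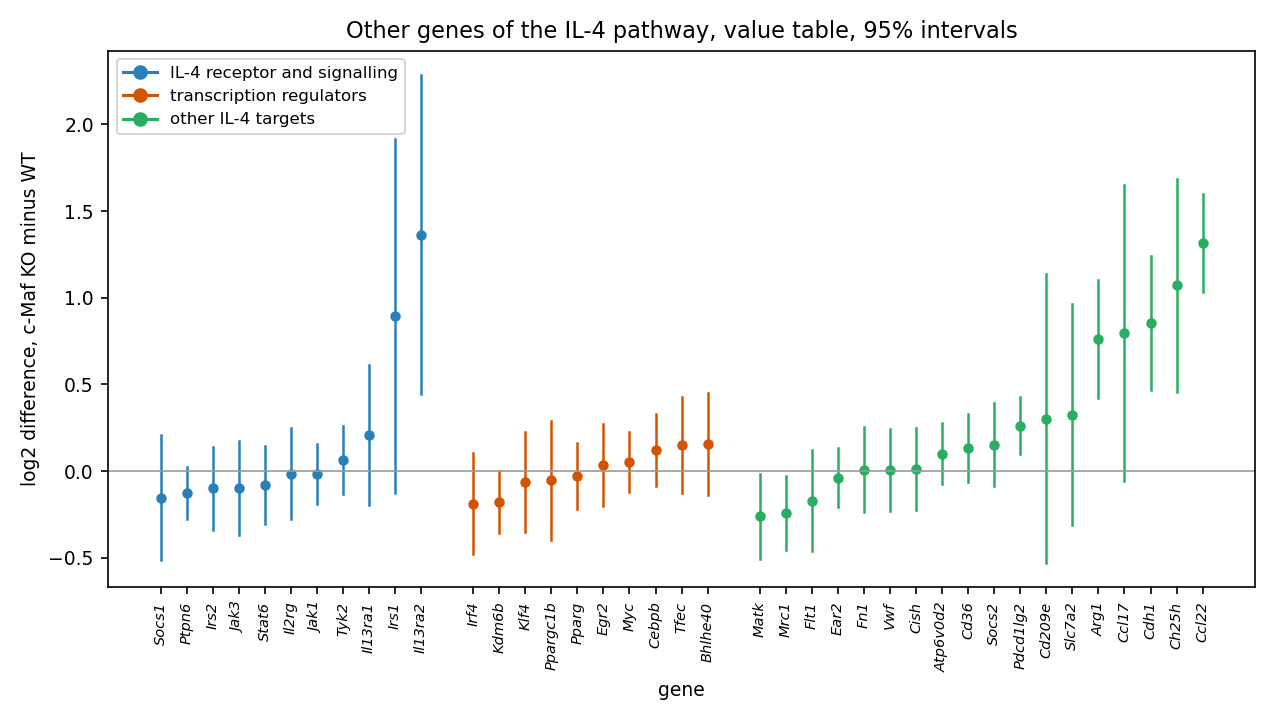
Log2 difference in the value table, c-Maf KO minus WT, with 95% limma intervals, for the tested genes of 3 lists: IL-4 receptor and signalling (11 genes), transcription regulators (10) and other IL-4 targets (18), each sorted by difference. The regulators lie between -0.19 and 0.16, and the widest differences are those of Il13ra2 (1.36) and Ccl22 (1.32, from signals not well above background in WT).

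Relatives and partners of the members were measured in 5 further lists with 25 tested genes, of which 0 were called in either source, and 3 higher and 5 lower had an unadjusted p under 0.05 in the value table (limma). Of the resistin and chitinase relatives, Retn, for resistin, measured -0.56 (SE 0.13, limma adjusted p = 0.237), Retnlg -0.20 and Chid1 0.19. Chil1, undetected on the c-Maf KO arrays, was at least 1.48-fold lower there (limma adjusted p = 0.383). It passed the filter on dim probes through 2 WT arrays alone, where it was high, so its p-value is no support for a difference. Retnlb, which adjoins Retnla, was not above background. Of 8 tested ribonucleases of the Ear11 family, 6 had positive differences, with a median of 0.043. The 4 with the highest signals were Ear2 (-0.038), Ear12 (0.050), Ear1 (0.063) and Ear10 (0.037), and near-identical copies in this family can share signal.

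Among the partners, Cd200, the ligand of Cd200r1, measured 0.54 (SE 0.13, limma adjusted p = 0.247), and all 3 c-Maf KO samples (0.15, 0.54 and 0.15) lay above the WT samples (-0.15, -0.36 and -0.26). Cd200r4, the gene next to Cd200r1, measured 0.20, and Ccr3, the receptor for Ccl24, -0.50 (SE 0.18, limma adjusted p = 0.363). Of 5 tested lectin relatives, Asgr2, the asialoglycoprotein receptor gene that adjoins Mgl2, measured -0.40 (SE 0.073, limma adjusted p = 0.187), with ratios of -0.23, -0.12 and -0.22 in c-Maf KO and 0.29, 0.12 and 0.23 in WT. Asgr1, for the other subunit of that receptor and named after its values were seen, measured 0.77 (SE 0.23, limma adjusted p = 0.299), with ratios of 0.84, 0.075 and 0.89 in c-Maf KO and -0.075, -0.30 and -0.12 in WT. Cd209a, Cd209d and Clec12a measured 0.35, 0.17 and -0.19. The 5 tested transglutaminase relatives of Tgm2 all had negative differences, with a median of -0.29, which is the value of Tgm6. Tgm1 and Tgm6 were each well above background on only 1 c-Maf KO and 1 WT array. Tgm3 measured -0.076, Tgm1 -0.71 (SE 0.49), Tgm4 -0.28 and F13a1, the factor XIII subunit, -0.73 (SE 0.19, limma adjusted p = 0.257).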

How the data were processed

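Scanner files hold intensities per spot, which the authors obtained with version 10.7.3.1 of Agilent Feature Extraction, according to the submitters' processing notes; per the file headers, detrending was on, background correction off, and dim spots could get surrogates. The deposited value table was read as a linear ratio to each probe's median over 6 samples, since its log2 values followed the scaled scanner signals and each probe's median was 0; the sources used here do not give its floor for low values.

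Control and outlier-flagged spots were left out (134 to 167 of 59305 per array). Processed intensities were divided by the array's 75th percentile, log2 was taken and spots of a probe averaged, giving 55681 probes, 13 of them dropped. A probe was kept if well above background on at least 2 of 5 arrays (28273). Signed differences were fitted per probe with limma (version 3.58.1, under R 4.3.3) (lmFit, eBayes, Benjamini-Hochberg over all kept probes, threshold 0.05), on the 5 arrays and on log2 of the value table; scripts were tested on simulated data. For a gene in a list, the kept probe with the highest mean signal was used; lists leave out the 10 members. Where a group was not well above background, its level on each array was set to the probe's signal or to the array's lowest signal well above background, whichever was higher, these were averaged, and the fold is a bound. The number of arrays limits the precision.

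The members and all gene and marker lists were chosen with earlier results of these data known. Genes to be named were all members, Maf, the genes of the receptor and regulator lists, the 5 genes most like the member of widest range, and of each other list the called genes and then those of highest signal, up to 4. Probe coordinates are those of the files (mm9). Alternatives were other background corrections, normalizations, scalings, filters, probe rules, variance models (statmod version 1.5.0), a replicate block, a pair of WT replicates averaged and each replicate left out.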

Additional observations from a re-analysis of the deposited data

How the results depend on the processing

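None of the 12 member probes was called under any alternative run, and leaving out each replicate gave 0 to 0 calls among them and among the pathway and family lists, in both sources. The number of calls over all probes was 7 for the 5 arrays, and 6 for the value table. On the 5 arrays it was 22 with normexp correction, 1 with probes above background on all 5 arrays, 123 with a variance trend and robust estimation, 2 with WT replicates 1 and 3 averaged, and 2 to 18 with a replicate left out (18 without c-Maf KO replicate 2, 2 without any WT replicate). In the value table it was 3 after quantile normalization, 2 without a filter, 50 with the trend and robust estimation, and 2 to 31 with a replicate left out (31 without WT replicate 1, 2 without c-Maf KO replicate 2 or 3). Pathway and family lists gained 2 calls on the 5 arrays (Arg1 and Cdh1) with the trend. In the value table they gained 1 (Ccl22) with the trend and 1 (Ccl22) with centred columns. Ccl22 passed the filter through the c-Maf KO arrays alone, so its calls are no support for a difference.

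Replicate numbers were not taken as pairs: the deviations of same-numbered samples correlated at -0.0043, -0.044 and 0.081, and c-Maf KO replicate 1 correlated best with WT replicate 2 (0.075). With the replicate number as a block there were 0 calls on the 5 arrays by limma, the first Maf probe measured -4.15 and the second, undetected in c-Maf KO, -4.72 (adjusted p = 0.268 for both), and Mgl2 measured 0.032.

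The first Maf probe on the 5 arrays was -4.12 and not called with WT replicates 1 and 3 averaged (adjusted p = 0.152). With a replicate left out it ranged from -4.35 to -3.89 and was not called without WT replicate 1, 2 or 3 (0.121, 0.167 and 0.136), and from -4.27 to -4.04 in the value table. The second probe was undetected on the c-Maf KO arrays, so its differences depend on the floor (-4.74 in the processed signal, -1.50 with normexp correction) and mean no more than the bound. With a replicate left out it ranged from -4.83 to -4.65 and from -4.74 to -4.09. In the value table it missed the threshold (-4.34, adjusted p = 0.0522) and passed with centred columns (-4.32), with the trend (-4.34) and without c-Maf KO replicate 1. The causes were not tested.

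The sign of Retnla turned after quantile normalization (0.015). With a replicate left out, signs turned on the 5 arrays for Ccl24 (-0.41 to 0.17), Cd200r1 (-0.14 to 0.080), Chil4 (-0.11 to 0.46), the Il4ra probes (-0.063 to 0.14 and -0.0075 to 0.21), Mgl2 (-0.19 to 0.076) and Rnase2a (-0.032 to 0.046), and in the value table for Cd200r1 (-0.11 to 0.0056) and Rnase2a (-0.023 to 0.026). Tgm2, Clec10a and Chil3 kept their signs in every alternative of both sources.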
